A study of Mus musculus with 10 samples.

Results

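The 10 neuronal cytoskeleton genes Map1b, Map1a, Map2, Mapt, Dclk1, Stmn1, Stmn2, Stmn3, Tubb3 and Nefl were followed through 10 ribosome pull-down libraries of the mouse medial habenula. These are 10 of 32531 gene rows, found by symbol in each library, and all 10 had enough reads for the comparison of the sides. They were picked by name with their CPM (reads of a gene scaled to a common library total of gene reads) by side and replicate number already known, so their levels are given as a description, and their fold changes between the sides are read from a fit over all genes. The groups were the left and the right side of the medial habenula, with 5 libraries each (replicates 1 to 5), dissected and homogenised apart from one another. All libraries came from adult mice of the BAC transgenic line Chat-TRAP DW167, in which the Chat driver places EGFP-tagged ribosomal protein Rpl10a in cholinergic neurons, and all were pulled down through the EGFP tag, a method known as TRAP. No unpurified tissue was analysed here, so enrichment in the tagged neurons was not measured, and the labels do not tell whether each library is its own animal or a pool. P-values therefore measure only the spread between these libraries, which may be partly technical.

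Microtubules are polymers of alpha and beta tubulin that carry transport along axons and dendrites. Map1b, Map1a, Map2 and Mapt (tau) bind along the polymer and stabilise or space it, Dclk1 is a doublecortin-like protein with a kinase domain that also binds it, and the stathmins (Stmn1, Stmn2, Stmn3) hold free tubulin dimers and favour disassembly. Tubb3 is the beta tubulin typical of neurons, and Nefl is the light subunit of neurofilaments, which set the calibre of axons. Map1b and the stathmins are best known from growing neurites, and the ventral medial habenula sends long cholinergic axons to the interpeduncular nucleus.

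Coding sequences were compared because the files set reads with several alignments aside in a row of their own, which bears on genes with close copies. In the annotation of GRCm38 (GENCODE M21), the coding sequence of Stmn1 shared 87.4% of its windows of 50 bases with other genes, mainly with the processed pseudogene Gm11223. Over the whole Stmn1 transcript the share was 36.5%. Window shares of other genes below are over whole transcripts. Stmn1 and Gm11223 both lie on chromosome 4 and shared an identical run of 273 coding bases. A stretch of 90 bases was chosen where Gm11223, Stmn2 and Stmn3 together had the most bases identical to Stmn1. Stmn4 was not compared. In this stretch the pseudogene copy differed from Stmn1 at 1 base, Stmn2 at 12 and Stmn3 at 22. The stretch is shown from coding base 206 of Stmn1, with capitals marking bases that differ from Stmn1.
Stmn1: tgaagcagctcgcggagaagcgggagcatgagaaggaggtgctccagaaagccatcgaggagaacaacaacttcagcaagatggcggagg
Gm11223: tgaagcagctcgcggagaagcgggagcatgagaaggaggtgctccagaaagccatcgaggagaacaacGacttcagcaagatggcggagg
Stmn2: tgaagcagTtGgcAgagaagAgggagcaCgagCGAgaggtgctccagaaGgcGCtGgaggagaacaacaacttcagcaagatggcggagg
Stmn3: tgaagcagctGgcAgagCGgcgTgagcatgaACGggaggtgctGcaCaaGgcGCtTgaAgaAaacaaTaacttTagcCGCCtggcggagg

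Stmn2 and Stmn3 shared no window of 50 bases with any other annotated transcript, and the same held for Map1b, Mapt and Tubb3. The relation of tau to Map2 shows in their most alike 90 coding bases, from base 876 in Mapt and base 5244 in Map2, where 68 bases were identical (capitals mark the others). The longest identical run between their coding sequences was 11 bases.
Mapt: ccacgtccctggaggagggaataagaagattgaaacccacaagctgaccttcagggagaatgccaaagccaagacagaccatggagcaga
Map2: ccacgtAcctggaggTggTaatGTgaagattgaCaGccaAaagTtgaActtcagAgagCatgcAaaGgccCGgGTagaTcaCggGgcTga

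Tubb3 was compared with Tubb4a, the beta tubulin with the most reads in these libraries. From coding base 1105 of each, 85 of 90 bases were identical, with capitals marking those that differ in Tubb4a, and the longest identical run of the coding sequences was 32 bases.
Tubb3: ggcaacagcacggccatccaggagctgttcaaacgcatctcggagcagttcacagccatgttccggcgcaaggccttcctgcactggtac
Tubb4a: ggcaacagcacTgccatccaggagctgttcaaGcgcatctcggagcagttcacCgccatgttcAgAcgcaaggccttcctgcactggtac

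Map1b carries lysine- and glutamate-rich repeats known for binding microtubules. Counted in frame as AAA or AAG, again AAA or AAG, then GAA or GAG, its coding sequence of 7392 bases held 18 such codon triplets, against 3 in Map1a and 4 in Map2. The densest stretch of 90 bases, from coding base 2077, held 6 of them, in capitals below.
Map1b: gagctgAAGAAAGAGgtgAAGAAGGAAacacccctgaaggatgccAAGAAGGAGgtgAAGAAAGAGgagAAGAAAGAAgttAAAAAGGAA

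The genes lie on several chromosomes of GRCm38. Map1b spans 99421446 to 99516540 of chromosome 13 on the minus strand, Map2 spans 66175273 to 66442583 of chromosome 1 on the plus strand and Dclk1 spans 55242364 to 55539068 of chromosome 3 on the plus strand. Nefl, on chromosome 14 from 68083863 to 68089095 on the plus strand, shares 32.8% of its exonic bases with an annotated transcript of Nefm on the other strand. Whether the counting used strand is unknown here, so reads of Nefl and Nefm cannot be fully told apart, and 31.8% of the windows of Nefl occur in Nefm. Map1a shares 2.24% of its exonic bases with Ppip5k1 on the other strand, and for Map2 and Dclk1 the share with other-strand genes is below that.

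The libraries did not form a uniform set, and this bears on every value that follows. Gene reads totalled 42488448 to 67942836 per library. The summed CPM of 13 markers of medial habenular neurons was 11040 to 11491 in replicates 1 and 5 of both sides, against 5421 to 9422 in the other 6 libraries. The 15 astrocyte markers summed to 221 to 236 CPM in replicates 1 and 5 and to 653 to 2352 CPM in the other 6 libraries, the 14 oligodendrocyte markers to 125 to 142 and to 478 to 1889 CPM, and the 12 thalamic and lateral habenular markers to 755 to 818 and to 1402 to 3159 CPM. By side, astrocyte markers summed to 221 to 2352 CPM on the left and 224 to 2307 CPM on the right, so the sides overlapped fully. GABAergic markers summed to 25.4 to 43.8 and to 136 to 508 CPM, and microglial markers to 7.09 to 8.83 and to 17.8 to 45.9 CPM. Aif1, Fcrls, Cldn5, Cdh5, Gbx2 and Vip were each at 0 in at least 1 library. Other defining markers were not absent from replicates 1 and 5, where the astrocyte transporter Slc1a2 had 33.1 to 38.5 CPM. Replicates 1 and 5 of a side also resembled each other closely. Over genes with 100 to 500 reads in a pair, the chi-square per gene for that pair was 2.16 among left and 1.32 among right libraries, above sampling noise, and 6.72 to 57.1 for all other pairs of a side. That division of the libraries was seen in the data, so levels are described by ranges over it. The labels do not tell whether replicates 1 and 5 of a side share RNA.

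By mean CPM over the libraries, Map1b ranked 2 of all gene rows, after Rn45s, a ribosomal RNA precursor. Rn45s held 0.891% of gene reads in left replicate 4, below Map1b there, and 6.27% to 10.2% in the other libraries. These reads are part of the total used for CPM. Map1b had 6843, 9355, 14826, 17736 and 6582 CPM in left replicates 1 to 5, against 6567, 9606, 16039, 13964 and 6394 CPM in right replicates 1 to 5. Libraries 1 and 5 of both sides were the lowest, replicate 2 of both came next, and the sides overlapped over nearly their whole range. Between 0.639% and 1.77% of all gene reads of a library belonged to this single gene. The highest library stood 2.77-fold above the lowest.

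Map1a, the relative of Map1b that predominates in mature neurons, varied most of all members. It had 388, 1263, 2209, 2836 and 399.5 CPM in left replicates 1 to 5, against 399.7, 1014, 2739.6, 1817 and 396 CPM in right replicates 1 to 5. Its range was 7.31-fold over all libraries, while replicates 1 and 5 of both sides lay within 388 to 399.7 CPM. The ratio of Map1b to Map1a was 16.2 to 17.6 in those 4 libraries and 5.85 to 9.47 in the other 6.

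Map2, which marks dendrites, moved with Map1b from library to library. It had 463, 635, 963, 1249.7 and 429.7 CPM in left replicates 1 to 5, against 441, 619.5, 1159, 869 and 424 CPM in right replicates 1 to 5. Over the libraries Map2 ranged 2.94-fold, yet the ratio of Map1b to Map2 stayed between 14.2 and 15.4 on the left and between 13.8 and 16.1 on the right. Mapt, the axonal tau gene, had a smaller range and was also lowest in replicates 1 and 5. It had 173, 234, 251, 244 and 175 CPM in left replicates 1 to 5, against 177, 199, 312, 269.7 and 176 CPM in right replicates 1 to 5.

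Dclk1, the kinase of the doublecortin family, ran the other way. It had 3028, 2045, 2195, 2136 and 2802 CPM in left replicates 1 to 5, against 2945, 2476, 1884, 1738 and 2829 CPM in right replicates 1 to 5. Its 4 highest libraries, replicates 1 and 5 of each side, were the 4 lowest of Map1b. The ratio of Map1b to Dclk1 was 2.23 to 2.35 in replicates 1 and 5 and 3.88 to 8.51 in the other 6 libraries. By mean CPM over the libraries Dclk1 ranked 11 of all gene rows.

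The stathmins divided into 3 patterns. Stmn2, a stathmin of growing and regenerating axons, was the steadiest member, with 420.2, 424, 389, 396 and 373 CPM in left replicates 1 to 5, against 392, 407, 413, 374 and 363 CPM in right replicates 1 to 5. Its range over all libraries was 1.17-fold and its coefficient of variation was 5.28%. Stmn3, another neuronal stathmin, had 524, 384, 279.9, 197 and 531 CPM in left replicates 1 to 5, against 619.9, 362, 282, 274 and 594 CPM in right replicates 1 to 5.

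Stmn3 was thus high in replicates 1 and 5 as Dclk1 was, and the ratio of Stmn2 to Stmn3 was 0.611 to 0.801 in those libraries and 1.10 to 2.01 in the other 6. Stmn1, the founding stathmin, was counted at only 82, 158, 169, 134 and 60 reads in left replicates 1 to 5, against 106, 81, 244, 119 and 75 reads in right replicates 1 to 5. Given the shared sequence shown above, these low counts are uncertain as a measure of its transcript. The pseudogene Gm11223 was not analysed here.

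Tubb3 had 164, 164, 192, 154 and 174 CPM in left replicates 1 to 5, against 183, 138, 231, 249 and 182 CPM in right replicates 1 to 5. Right replicates 3 and 4 were above every left library, while right replicate 2 was below all of them. Nefl was lowest in replicates 1 and 5, as Map1a was, with 160.3, 332, 483, 592 and 173 CPM in left replicates 1 to 5, against 154, 292, 595, 479 and 159 CPM in right replicates 1 to 5. Its range was 3.88-fold. The ratio of Nefl to Nefm, the medium subunit of the same filament, lay between 0.978 and 1.51 over all libraries.

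**Figure D1:**
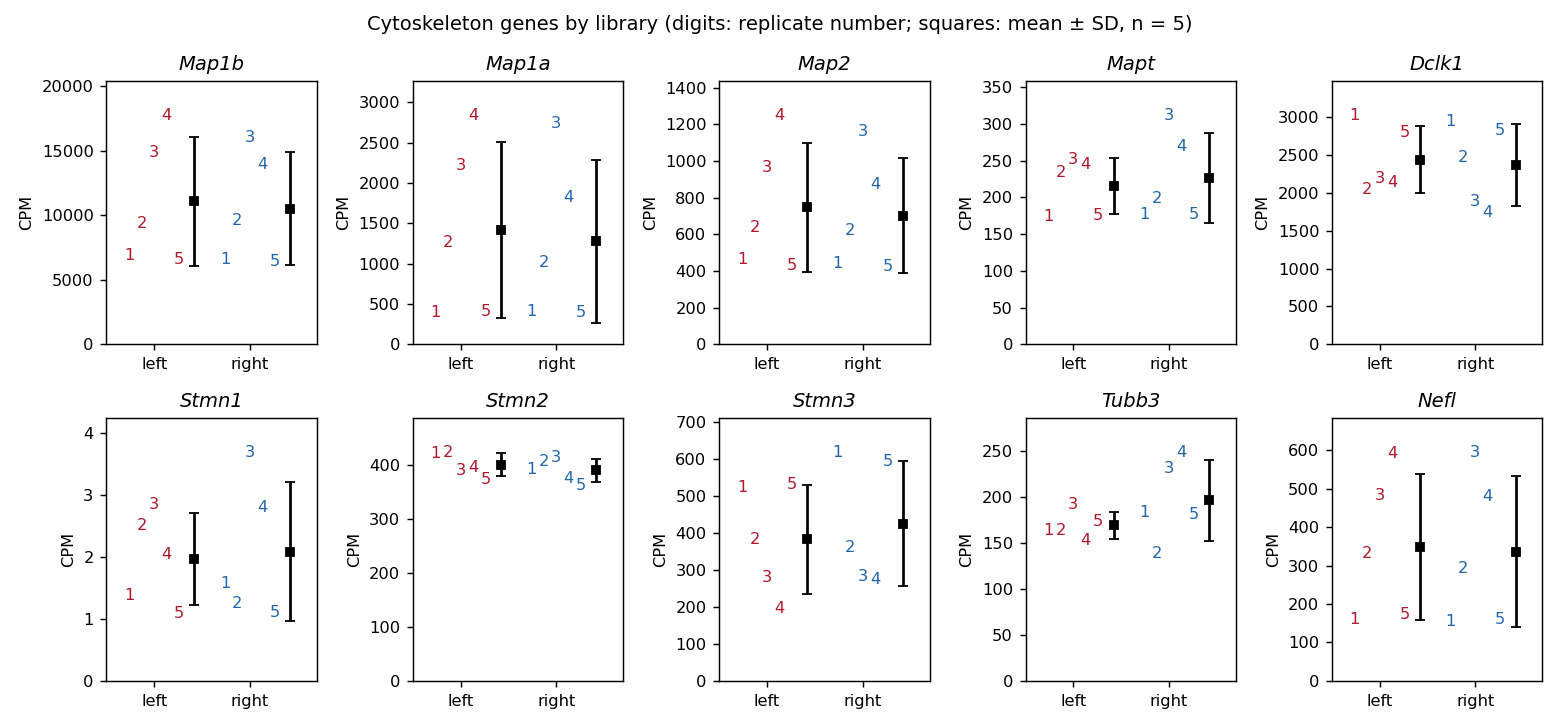
CPM of the 10 genes (vertical axis from 0, 1 panel per gene) in the left and the right libraries, with digits for the replicate number and squares for the mean with SD of 5 libraries. Digits 1 and 5 sit at the bottom for Map1b, Map1a, Map2 and Nefl and at the top for Dclk1 and Stmn3, on each side alike.

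**Figure D2:**
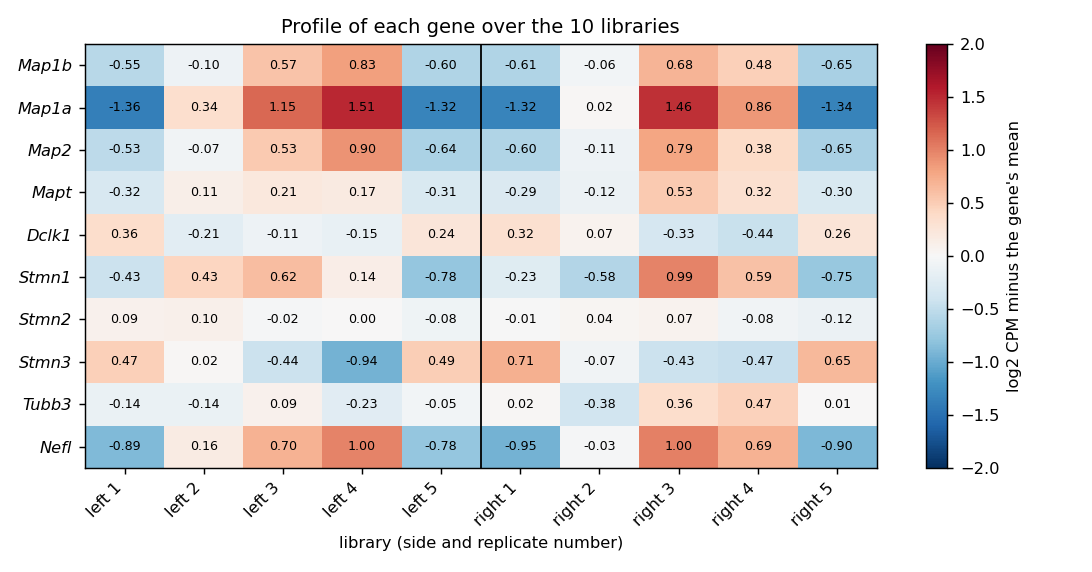
Log2 CPM of each gene minus its own mean over the 10 libraries, with left libraries before right ones and colour from blue (low) to red (high). Map1b and Map2 have nearly the same row, from -0.65 to 0.83 and from -0.65 to 0.90, while Stmn2 stays between -0.12 and 0.10.

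Per kilobase of exon, on which levels of different genes can be compared, Map1b remained first by its mean over libraries. The level of Map1b was 681 ± 279 CPM per kb (SD over 10 libraries), rank 9 of 14410 tested genes with a known length. Stmn3 followed at 356 ± 133 and Dclk1 at 157 ± 30.7 CPM per kb. Map1a stood at 111 ± 81.6, Nefl at 101 ± 53.9, Tubb3 at 98.0 ± 18.3, Stmn2 at 70.5 ± 3.72, Map2 at 44.1 ± 19.1 and Mapt at 29.4 ± 6.42 CPM per kb. Stmn1 came last at 1.06 ± 0.468 CPM per kb. Ranges of all neighbours in that order overlapped except those of Mapt and Stmn1. Map1b was above Stmn3 in 6 of 10 libraries and below it in replicates 1 and 5 of both sides. Taking the longest transcript as the length instead changed the place of 5 genes and raised Map2 to 116 CPM per kb, since its union of exons is much longer than any 1 transcript.

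The comparison of the left with the right side, which the study was designed for, showed no member that differed beyond the spread between libraries. Map1b averaged 11068 ± 4987 CPM in left libraries and 10514 ± 4353 CPM in right libraries (SD, n = 5 each), with a log2 fold change (left minus right) of 0.04 and a 95% interval of -0.77 to 0.85. Stmn2 was bounded most tightly, at 400.4 ± 21.4 CPM in left libraries and 389.7 ± 21.2 CPM in right libraries, with a log2 fold change of 0.02 and an interval of -0.16 to 0.19. The difference of Tubb3 was the largest in size in this fit, at 169 ± 14.5 CPM in left libraries and 197 ± 44.1 CPM in right libraries, with a log2 fold change of -0.25 and an interval of -0.63 to 0.14. Map1a had the widest interval, from -1.46 to 1.69 around 0.11.

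The other log2 fold changes were 0.06 for Map2, -0.10 for Mapt, 0.02 for Dclk1, -0.11 for Stmn1, -0.17 for Stmn3 and 0.01 for Nefl. By the quasi-likelihood test of edgeR with Benjamini-Hochberg adjustment, 0 of the 10 members and 0 of 16250 genes passed an adjusted p of 0.05 (0% of genes). The smallest adjusted p was 0.99999, and 90 genes had an unadjusted p below 0.05, with 141 by DESeq2, which also called 0. These counts are lower than chance alone would give if the libraries varied independently. For no member did the 5 left and the 5 right libraries separate. Over all genes tested, 0.111% had all left libraries above and 0.105% all left libraries below the right ones. The members' median log2 fold change was 0.02, against -0.01 over all genes tested.

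**Figure D3:**
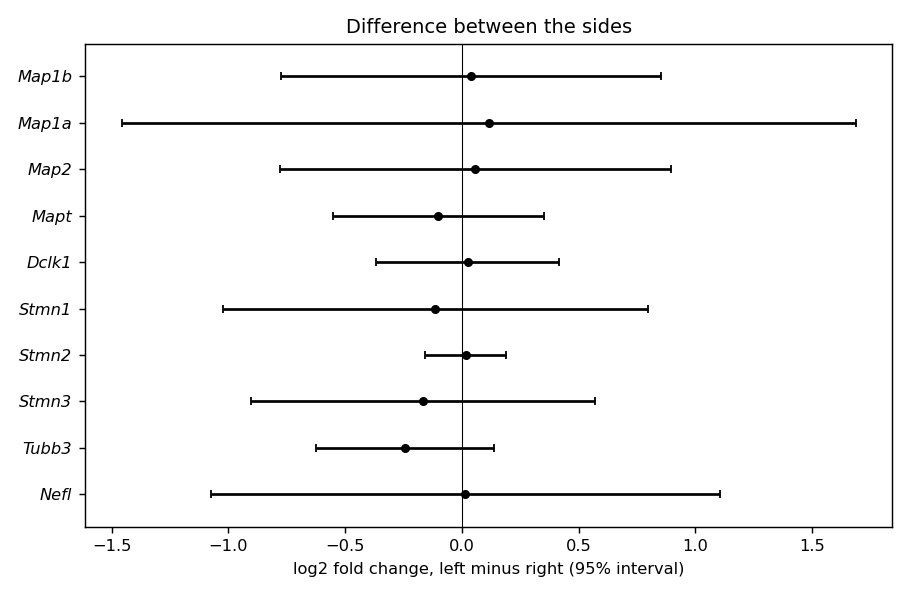
Log2 fold change of each gene, left minus right (horizontal axis), as points with 95% intervals from the edgeR fit to 10 libraries. Every interval spans 0, the narrowest being that of Stmn2 (-0.16 to 0.19) and the widest that of Map1a (-1.46 to 1.69).

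With replicates 2 to 4 alone, 0 of 10 members and 0 genes passed, and the log2 fold change of Map1b was 0.06. With replicates 1 and 5 of each side summed to 1 library, again 0 members and 0 genes passed, and the log2 fold change of Stmn3 was -0.14. A fit to replicates 1 and 5 alone treats the nearly alike libraries of a side as replicates. The fit weighs the sides against little more than the spread within such a pair. It called 1 of 10 members, Stmn3 (log2 fold change -0.20), beside 12.8% of all genes, 5.74% higher on the left and 7.06% higher on the right, and nothing is read from it.

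By replicate number, replicates 1 and 5 of both sides lay below the other 6 libraries for 5 members (Map1b, Map1a, Map2, Mapt and Nefl), above them for 2 (Dclk1 and Stmn3) and overlapped for Stmn1, Stmn2 and Tubb3. The same counts were found with scaling by TMM and by median of ratios. Over all genes tested, 24.3% lay below and 22.9% above in that way. Glial and thalamic markers moved with the first set and habenular markers with the second, as given above, and their part in these levels was not tested. In such bulk pull-downs, fewer cells of a type and less RNA per cell cannot be told apart.

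Transcript length moved with the same division of libraries. Genes were taken from a mean of 10 CPM upwards. The 311 whose longest transcript exceeds 10 kb had a median log2 deviation from their own mean of -0.47 to -0.38 in replicates 1 and 5, against 0.02 to 0.58 in the other 6 libraries. The 655 genes under 1.5 kb had 0.44 to 0.47 and -0.66 to 0.04. Of the long class, which holds Map1b (11808 bases) and Map1a (11825 bases), 67.8% lay below the other libraries in replicates 1 and 5 and 4.18% above. Of the short class, which holds Stmn3 (1136 bases) and Stmn1, 74.8% lay above and 1.98% below. Map2 and Dclk1 share the class of 6 to 10 kb, where 45.3% lay below and 9.93% above, yet they lay on opposite sides. Nefl, Mapt and Stmn2 share the class of 3 to 6 kb, where 20.2% lay below and 24.7% above. The longest coding transcript of Stmn2, used for its windows of shared sequence, has 2073 bases. That length falls in the class of 1.5 to 3 kb, where 7.54% lay below and 49.0% above. The part of length in these levels was not tested.

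**Figure D4:**
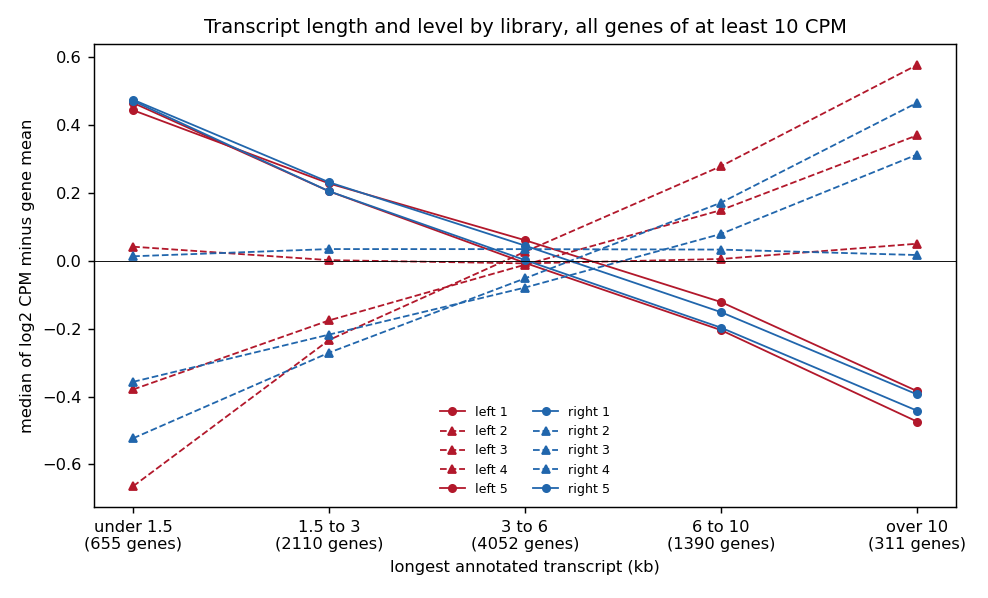
Median over genes of log2 CPM minus the gene's mean (vertical axis) by length of the longest annotated transcript in kb (horizontal axis), 1 line per library, red for left and blue for right, solid for replicates 1 and 5 and dashed for the others. Solid lines fall with length to between -0.47 and -0.38 above 10 kb, replicate 2 of both sides is flat, and replicates 3 and 4 climb.

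The genes most like Map1b over the 10 libraries were sought among 2229 other genes averaging 100 CPM or more, by the root mean square difference of log2 CPM after each gene's mean was removed. Map2 was the second closest, at 0.0595. The 5 closest genes that are not members were Tpr at 0.0516, Cep350 at 0.0615, Chd8 at 0.0621, Fry at 0.0645 and Wdfy3 at 0.0668, against a median of 0.604 over all genes compared. Tpr, a nuclear pore protein, had 230.2 to 262 CPM in replicates 1 and 5 and 328 to 616 CPM in the other 6 libraries. Cep350 is a centrosomal protein that binds microtubules and Chd8 a chromatin remodeller. Among the other members Nefl came next, at 0.244, followed by Mapt at 0.318, Tubb3 at 0.535 and Stmn2 at 0.554. Dclk1 (0.807) and Stmn3 (1.09) were farthest. Map1a, the closest relative of Map1b among the members, ranked 1173 of 2229, beyond the median gene. This measure counts the size of a swing as well as its direction, so a steady gene such as Stmn2 can rank nearer. Outside replicate 2, Map1a swung in the same direction as Map1b but further. Its log2 deviation from its mean was -1.36 to -1.32 in replicates 1 and 5 and 0.86 to 1.51 in replicates 3 and 4. That of Map1b was -0.65 to -0.55 and 0.48 to 0.83. In replicate 2 Map1a lay above its mean (0.34 left, 0.02 right) and Map1b below (-0.10 and -0.06).

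**Figure D5:**
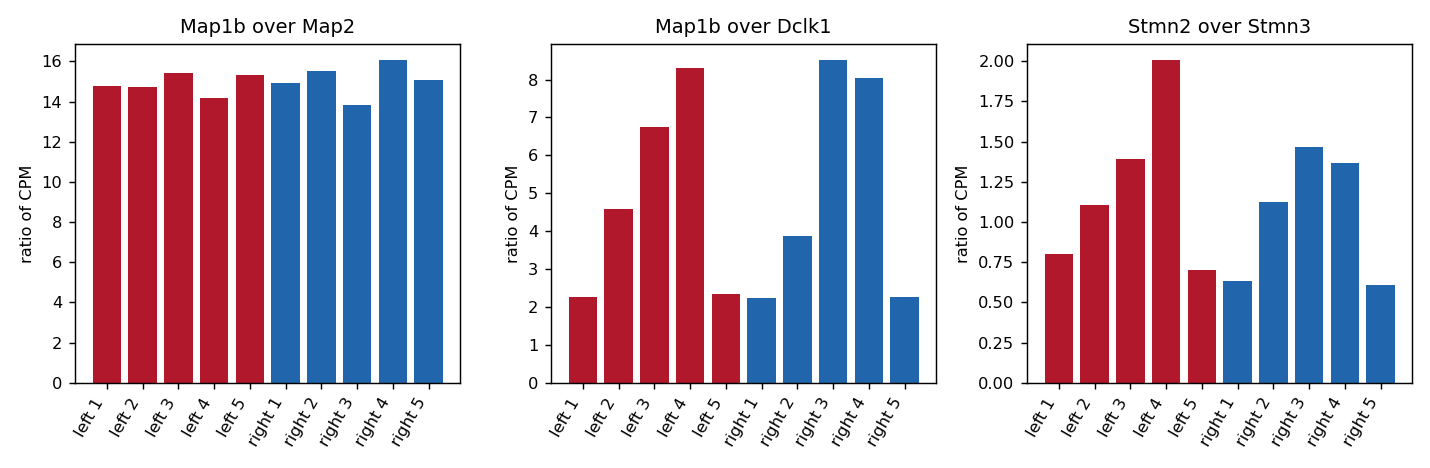
Ratios of CPM within each library (vertical axes from 0) for Map1b over Map2, Map1b over Dclk1 and Stmn2 over Stmn3, as bars, red for left and blue for right. The first ratio stays between 13.8 and 16.1 in all 10 libraries, while the second runs from 2.23 to 8.51.

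The rest of the cytoskeletal machinery was examined in 15 lists with 182 measured genes, of which 178 were tested. Between the sides 0 of the 178 passed in either direction (edgeR with Benjamini-Hochberg adjustment, 0% of all genes). By replicate number 61 of them lay below in replicates 1 and 5 and 33 above, beside the 24.3% and 22.9% of all genes. Those shares differ by transcript length, as given above. The part of length in this count and in those of single lists below was not tested.

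Among 6 tested beta tubulins other than Tubb3, which itself overlapped, 4 lay below in replicates 1 and 5 and 1 above. Beside this and the other tubulin counts, 24.3% of all genes lay below and 22.9% above, and these lists hold few genes. Counts of several are uncertain, since Tubb2a, Tubb2b and Tubb4b share 49.6%, 39.3% and 55.5% of their windows of 50 bases with other genes. Tubb4a, a beta tubulin of neurons and myelinating glia, averaged 2401 ± 1432 CPM in left libraries and 2109 ± 1018 CPM in right libraries, with 1078 to 1153 CPM in replicates 1 and 5 and 2159 to 4470.1 CPM in the other 6 libraries. Tubb5 averaged 288 ± 48.6 CPM in left libraries and 310.0 ± 82.3 CPM in right libraries. Of 5 tested alpha tubulins 3 lay below, among them Tuba1a at 399 ± 76.9 CPM in left libraries and 446 ± 117 CPM in right libraries, though 75.5% of its windows of 50 bases occur in other genes and its counts are uncertain. Tuba4a averaged 239.9 ± 35.6 CPM in left libraries and 249.9 ± 62.0 CPM in right libraries, and shares 48.8% of its windows, mainly with Stk16. Nucleation genes included Tubgcp3 at 46.0 ± 2.99 CPM in left libraries and 47.0 ± 4.68 CPM in right libraries, and 4 of 9 lay below.

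Close relatives of the members did not all follow them. Stmn4, the remaining tested stathmin, averaged 43.4 ± 22.1 CPM in left libraries and 50.1 ± 29.7 CPM in right libraries. Dclk2 had a log2 fold change of -0.04 between the sides and lay below in replicates 1 and 5 (29.5 to 31.0 CPM, against 39.3 to 57.8 CPM in the other 6), opposite to Dclk1. Dcx, the founding doublecortin, averaged 39.8 ± 3.36 CPM in left libraries and 39.1 ± 3.66 CPM in right libraries. Of only 4 neurofilament-type genes besides Nefl, 3 lay below, beside 24.3% of all genes. They included Nefm at 312 ± 191 CPM in left libraries and 263 ± 119 CPM in right libraries. Ina, the alpha-internexin gene, averaged 439 ± 111 CPM in left libraries and 405 ± 41.7 CPM in right libraries. Among glial and vascular filaments, Vim had 4.11 to 5.49 CPM in replicates 1 and 5, against 9.12 to 22.6 CPM elsewhere.

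Of 19 other tested microtubule-binding genes, 3 lay below in replicates 1 and 5, 2 lay above and 14 overlapped with the other libraries. Over all genes 24.3% lay below and 22.9% above, and the rest overlapped. Map4, the broadly expressed relative of Map2 and tau, averaged 1032 ± 102 CPM in left libraries and 1013 ± 99.7 CPM in right libraries. Of only 6 relatives of Map1b and its light chain, 3 lay above in replicates 1 and 5 and 3 overlapped, beside 22.9% above over all genes. Gabarapl1, which acts in autophagy, had 678 to 717 CPM in replicates 1 and 5 and 328 to 569 CPM in the other 6 libraries. Gsk3b and Mapk10, kinases that phosphorylate microtubule-associated proteins, averaged 906 ± 68.8 and 1169 ± 125 CPM on the left, and 952 ± 37.6 and 1085 ± 108 CPM on the right. Of the 18 genes of that list 3 lay below, 4 above and 11 overlapped, beside the same shares of all genes.

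Of 28 kinesin and dynein genes, 10 lay below, 5 above and 13 overlapped, beside 24.3% below and 22.9% above over all genes. Kif1a, a kinesin of synaptic vesicle precursors, averaged 2111 ± 1211 CPM in left libraries and 2038 ± 1112 CPM in right libraries. Of 10 spectrins and ankyrins 8 lay below and 0 above, led by Sptbn1 with 213 to 237 CPM in replicates 1 and 5 and 609.7 to 1854 CPM in the other 6 libraries. Ank2 had 183 to 199 and 540.4 to 1450.0 CPM. Of 22 actin and growth-cone genes, 11 lay above and 5 below. Actb averaged 805 ± 152 CPM in left libraries and 904 ± 171 CPM in right libraries. Among 20 end-binding and severing genes 9 lay below, while that with the most reads, Clip3, averaged 2015 ± 392 CPM in left libraries and 1838 ± 309.9 CPM in right libraries. Of 21 tubulin folding and modifying genes 2 lay below, 5 above and 14 overlapped, beside the same shares of all genes. Agtpbp1, which trims glutamates from tubulin tails, averaged 591 ± 49.2 CPM in left libraries and 560.4 ± 29.3 CPM in right libraries.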

How the data were processed

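RNA from 10 pull-down libraries was sequenced. The authors deposited unnormalised read counts by gene. STAR 2.0.0e, HTSeq and the build mm10 appear in the submitters' processing notes, without the annotation or strand setting. Of 32537 rows a file, 6 that name no gene were left out. Reads outside genes were 13.6% to 18.9% and ambiguous reads 2.25% to 2.81% of uniquely aligned reads. At 42488448 gene reads or more, counting noise is small for all members but Stmn1.

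Groups came from the titles. CPM was computed over gene rows. Sides were compared with edgeR 4.0.16 in R 4.3.3 (TMM, filterByExpr with a minimum count of 10, robust quasi-likelihood F test). The test was two-sided with side alone in the model, at an adjusted p under 0.05. It was first run on 3 simulated sets with 200 changed genes each. There it recovered 36% of 2-fold and 82.3% of 4-fold changes, with 17 false calls over the 3 sets. In the edgeR fit to the real libraries, 90 of 16250 genes had an unadjusted p below 0.05. That is fewer than chance alone would give if the libraries varied independently. The recovery in the simulated sets may therefore not hold for these libraries. A count of 0 genes called does not exclude 2-fold differences between the sides, and the recovery of larger ones here is unknown. Alternatives used DESeq2 1.42.0 and limma 3.58.1, other scalings, filters and libraries.

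Lengths, positions and sequences came from GENCODE M21 (GRCm38, the build mm10), which matched 23113 gene names. Named genes were the members, the 2 most abundant of each list and the 5 most like Map1b. Members and lists were chosen with earlier results of these data known. Gm11223, Tubb2a, Tubb2b, Tubb4b, Stk16, Ppip5k1, Rn45s, Slc1a2 and the markers at 0 were named after their values were seen. Figures used matplotlib 3.10.9.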

Additional observations from a re-analysis of the deposited data

How the results depend on the processing

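Of 210 log2 fold changes of the members under 21 other settings, 209 moved by less than 1 SD of log2 CPM between libraries of a side. The exception was Mapt, at 0.24 with limma-voom and sample weights. With that test the fold change of Map1a was 1.20, that of Nefl 0.81, that of Map1b 0.51 and that of Stmn3 -0.62. These shifts still counted as less than 1 SD, since that SD is taken across the division of replicates 1 and 5 from the others. It was 1.31 for Map1a and 0.87 for Nefl, so the count of 209 says little about stability. Limma-voom also turned the sign of Stmn1 (0.55) and Dclk1 (-0.25) and put Tubb3 at -0.10. With it 0 genes passed (smallest adjusted p = 0.285, with 2359 genes at an unadjusted p below 0.05). Counts of genes called between the sides were 0 under 20 of the settings and 0 to 0 when any single library was left out. With replicates 1 and 5 alone the count was 1992, 12.8% of genes tested, and 7 of 176 other cytoskeleton genes passed there. Nothing is read from either count. The fit to replicates 1 and 5 alone takes nearly alike libraries as replicates. With replicates 1 and 5 of a side summed 0 genes passed. That summed fit takes in the spread of the other libraries, so it cannot decide what lies behind the 1992 calls. Their cause was not tested. When a single library was left out, the log2 fold change of Map1b lay between -0.19 and 0.26 and that of Map1a between -0.29 and 0.62. Tubb3 remained lower on the left in each such fit, between -0.36 and -0.12.

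Libraries with the same replicate number shared their deviation from the side means for 4 numbers (r = 0.715 to 0.873) but not for replicate 2 (r = 0.0962), and the labels name no shared animal, so the numbers were not taken as pairs. Per the labels, left and right libraries of replicates 2 to 5 carried the same lane number, and those of replicate 1 did not. Whether equal lane numbers mean the same sequencing run is unknown. The titles hold bracketed numbers, 820 and 822 for replicate 1 and 1042 to 1049 for the other libraries, whose meaning is not given. Of the left libraries, 3 correlated best with their own replicate number. With the replicate block, edgeR called 0 genes with 297 at an unadjusted p below 0.05, 0 cytoskeleton genes passed, and Map1b had a log2 fold change of 0.04 with an interval of -0.13 to 0.21. In that fit the interval of Map1a narrowed to -0.16 to 0.36, and the widest was that of Stmn1, -0.59 to 0.51. A further edgeR fit took the mean log2 CPM of glial and vascular markers as a covariate. It called 0 genes, with 518 at an unadjusted p below 0.05. Intervals there were -0.17 to 0.32 for Map1b, -0.08 to 0.41 for Map1a and -0.52 to 0.43 for Stmn1. The markers come from the same libraries, and the part of glia was not tested. Mean levels of the members moved by less than 1 SD over libraries under other scalings and with replicates 2 to 4 alone. That SD is wide too, and the mean of Map1a went from 1346 to 1980 CPM with replicates 2 to 4 alone. Depth limits Stmn1, at 60 to 244 reads per library.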
